A study of Mus musculus with 8 samples.

Results

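Solute carriers are the membrane proteins that move sugars, amino acids, vitamins, metals, ions and metabolites across cell and organelle membranes without direct use of ATP. The 133 solute carrier genes described here, seen in 134 rows of an expression array, were those detected in mouse colonic mucosa. A row was taken when its annotated symbol began with Slc and a digit and its signal was above background (detection p under 0.01) on at least 4 of the 8 arrays. Of 325 such rows on the array, standing for 322 genes, 135 passed, 177 were detected on no array and 13 on 1 to 3 arrays. A further 8 genes were left out by name, and 1 of the rows that passed was theirs. The members were thus chosen by their detection values, which are not tested here, and with genotype results known.

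RNA came from 4 male mice of 157 days on a mixed 129Sv/B6/D2 background. The 2 TgVillacIGY mice had the genotype Dnmt1LO/LO with TgVillacIGY, and the 2 control mice had Dnmt1LO/LO alone, so all 4 mice carried Dnmt1LO/LO as well. Neither allele name, nor the cells in which the transgene acts, is explained in the labels. The question of the series is how colonic expression differs with and without inhibition of Dnmt1, the enzyme that maintains DNA methylation. There were 2 technical arrays for every mouse, averaged before any test, so each genotype had n = 2 mice. The p-values and standard errors (SE) weigh the spread between these mice together with a spread estimated over all rows tested.

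In the colon the epithelium faces a dense bacterial community and absorbs salt, water, short-chain fatty acids and bacterial vitamins. Carriers on the apical membrane take solutes from the lumen, carriers on the basolateral membrane pass them to the blood, and a large share of the superfamily works inside the cell. The Slc25 family crosses the inner mitochondrial membrane, and the Slc35 family feeds nucleotide sugars into the endoplasmic reticulum (ER) and the Golgi, where mucins and surface proteins are glycosylated.

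Raw signals averaged 698 to 1019 per array in TgVillacIGY mice and 866 to 1080 in control mice. Dnmt1 itself was at 7.09 ± 0.49 in TgVillacIGY mice and 9.29 ± 0.16 in control mice (log2, SD, n = 2 each; limma adjusted p = 0.129). All 7 epithelial markers on the array (of Epcam, Cdh1, Vil1, Krt8, Krt18, Krt19, Cdx1 and Cdx2) were detected, whereas no macrophage marker and no smooth muscle or stromal marker was detected on enough arrays to be tested. Among markers of mature absorptive colonocytes, 7 of 8 were tested. Their summed background-corrected signal was 73280 in TgVillacIGY mouse 1 and 126600 in TgVillacIGY mouse 2, against 120300 and 124000 in control mice 1 and 2. Of 6 tuft cell markers, 5 were tested, and the other, Pou2f3, was detected on no array. The summed signal of the 5 was 4319 and 2567 in TgVillacIGY mice 1 and 2, against 788 and 800 in control mice 1 and 2. All 5 were higher in both TgVillacIGY mice than in both control mice. Of 7 T and B cell markers, 2 were tested, with summed signals of 87.0 and 168 in TgVillacIGY mice and 261 and 254 in control mice. In bulk tissue, fewer cells of a type and less RNA per cell cannot be told apart, and the part of cell makeup in the carrier values below was not tested.

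No solute carrier row passed the test between genotypes. Over all 6982 rows tested, limma called 9 (0.129%, adjusted p under 0.05), and 0 of the 134 carrier rows were among them. At an unadjusted p under 0.05, 9 carrier rows were higher in TgVillacIGY mice (6.72%, against 4.43% of all rows) and 7 were lower (5.22%, against 3.97%). Both TgVillacIGY mice lay above both control mice in 23 carrier rows (17.2%, against 21.7% of all rows) and below both in 27 (20.1%, against 20.9%). These shares are close to the background, so the carriers as a set showed no excess of separated genotypes. The median change over the 134 rows was -0.01 on the log2 scale, TgVillacIGY minus control, as it was over all rows (-0.01). The detection rule favours rows that are bright in 1 genotype: 9 rows were detected on all 4 TgVillacIGY arrays but not all control arrays, and 9 the other way round. Among the 110 carrier rows detected on all 8 arrays, 17 lay above (15.5%, against 21.1% of all such rows) and 24 below (21.8%, against 20.6%).

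A change of over 2-fold was seen in 3 rows upward (2.24%, against 2.26% of all rows) and in 10 downward (7.46%, against 2.39%). Of these 10, Slc24a3, Slc2a6 and Slc46a3 had TgVillacIGY mice within 2-fold of each other, and in the others mouse 1 was over 2-fold below mouse 2. A class is a group of families with a like textbook substrate, with some genes placed singly. The classes differed in their medians, from 0.35 for 5 rows of the nucleoside class to -1.41 for 3 carriers of monocarboxylates and dicarboxylates. These medians depend on single mice: without TgVillacIGY mouse 1 they were -0.089 and -0.26, and without TgVillacIGY mouse 2 they were 0.78 and -2.12. Over the 4 fits that each left out 1 mouse, only the medians of carboxylate, phosphate and vitamin carriers kept their sign. Counts of class members above or below in both TgVillacIGY mice are to be read against 21.7% and 20.9% of all rows. Fold changes are on a log2 scale with an added offset of 16 and understate the change of dim rows. With the background estimated from all rows, every change of the 38 carriers named by rule kept its sign, but dim rows shrank. Slc2a6 then had a change of -0.14, Slc46a3 of -0.63, Slc39a6 of 0.17, Slc25a45 of 0.12, Slc24a3 of -0.12, Slc20a1 of -0.16 and Slc16a6 of 0.037. Others shrank as well, among them Slc27a2 to 0.18, Slc27a3 to 0.057, Slc7a6 to 0.10 and Slc38a10 to 0.050. Slc16a9 shrank to -0.41, Slc17a4 to -0.27 and Slc51b to -0.37. Brighter rows such as Slc5a6 (-1.03) and Slc8b1 (-0.82) did not shrink.

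**Figure D1:**
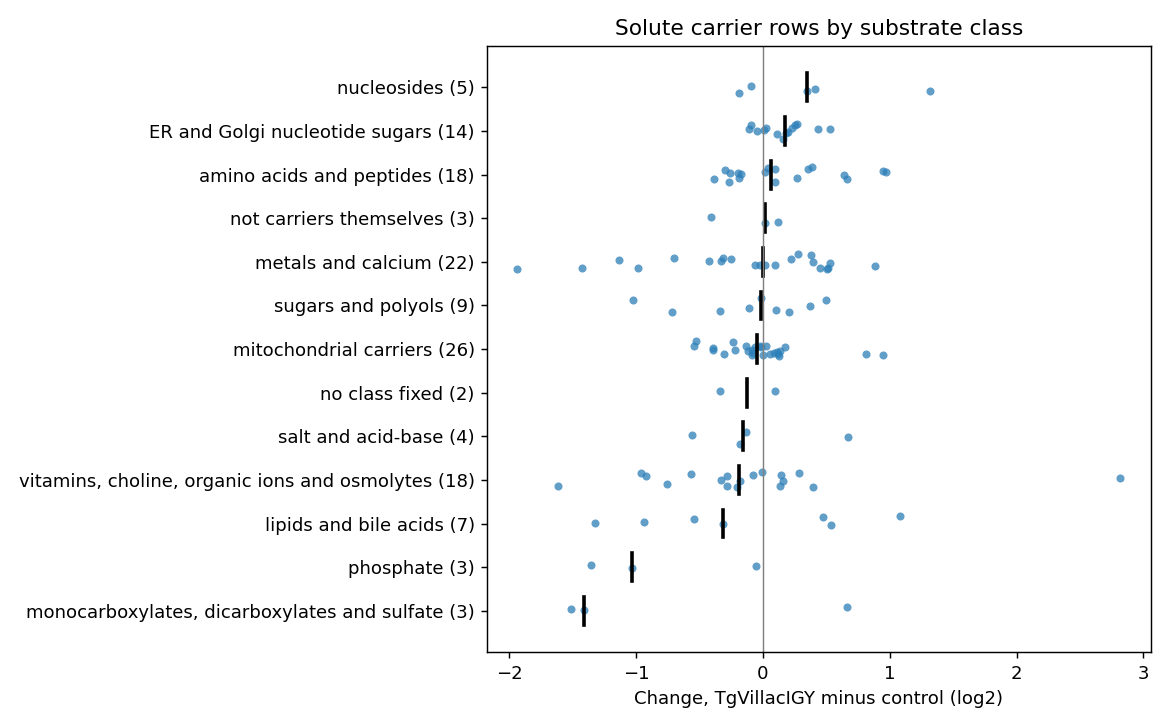
Change of each solute carrier row (TgVillacIGY minus control, log2, x axis) by substrate class (y axis, number of rows in brackets), with the class median as a black bar. Slc47a1 stands alone at 2.82 on the right, and the 26 mitochondrial carriers lie between -0.54 and 0.94.

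Vitamin, choline, organic ion and osmolyte carriers held the largest difference upward and several of the clearest downward ones. Of their 18 rows, 3 lay above and 8 below in both TgVillacIGY mice, with a median of -0.19 (from -0.28 to -0.097 without 1 mouse in turn). The shares over all rows were 21.7% above and 20.9% below. Slc47a1 encodes MATE1, the antiporter that exchanges protons for organic cations at the kidney brush border and the bile canaliculus. Its raw signal was 647 and 639 on the arrays of TgVillacIGY mouse 1 and 2276 and 2518 on those of mouse 2, against 297 and 266 in control mouse 1 and 236 and 192 in control mouse 2. Every TgVillacIGY array was thus above every control array, and mouse 2 was far above mouse 1. Its level was 10.25 ± 1.04 in TgVillacIGY mice and 7.43 ± 0.39 in control mice (log2, SD, n = 2 each), a change of 2.82 ± 0.53 (SE) or 7.06-fold, which did not pass (limma adjusted p = 0.242). The row was detected on 4 of 4 TgVillacIGY and 1 of 4 control arrays, so it passed the rule through the TgVillacIGY arrays. It is 1 of 21 carrier rows whose detection values are not whole steps, and its detection count is uncertain for that reason.

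Slc46a3, a lysosomal relative of the intestinal folate carrier, had raw signals of 222 and 215 in TgVillacIGY mouse 1 and 383 and 429 in mouse 2. In control mice 1 and 2 they were 684 and 646, and 946 and 895. No TgVillacIGY array reached a control array. The levels were 7.82 ± 0.43 in TgVillacIGY mice and 9.44 ± 0.37 in control mice, a change of -1.62 ± 0.30 (SE, adjusted p = 0.242). Slc46a1, the proton-coupled folate carrier itself, was at 7.64 and 7.11 in TgVillacIGY mice 1 and 2, against 7.68 and 8.91 in control mice 1 and 2. TgVillacIGY mouse 1 and control mouse 1 were thus nearly level, and the change of -0.92 (adjusted p = 0.653) rests on control mouse 2.

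Slc5a6 encodes the sodium-dependent multivitamin carrier, which takes up biotin and pantothenate, including that made by bacteria. Its raw signals were 712 and 882 in TgVillacIGY mouse 1 and 929 and 1031 in mouse 2, against 1871 and 1474 in control mouse 1 and 2103 and 1835 in control mouse 2. The mice of a genotype were close to each other here, at 9.73 ± 0.17 in TgVillacIGY mice and 10.70 ± 0.18 in control mice, a change of -0.97 ± 0.19 (SE, adjusted p = 0.264). The creatine carrier Slc6a8 was at 10.93 and 11.53 in TgVillacIGY mice 1 and 2, against 11.73 and 12.24 in control mice 1 and 2 (change -0.76, adjusted p = 0.605). Carriers of other water-soluble vitamins differed less. The thiamine carrier Slc19a2 was higher by 0.40 ± 0.17 (SE) and the reduced folate carrier Slc19a1 by 0.28 ± 0.22 (SE). The riboflavin carrier Slc52a3 had a change of -0.28, and Slc44a4, which takes up thiamine pyrophosphate in the colon, one of -0.18. The taurine carrier Slc6a6 (0.16) and the carnitine carrier Slc22a5 (-0.20) also had small changes. Slc23a2, an ascorbate carrier, was at 7.26 in TgVillacIGY mouse 1 and 8.73 in mouse 2, on either side of control mice 1 and 2 (8.35 and 8.21).

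**Figure D2:**
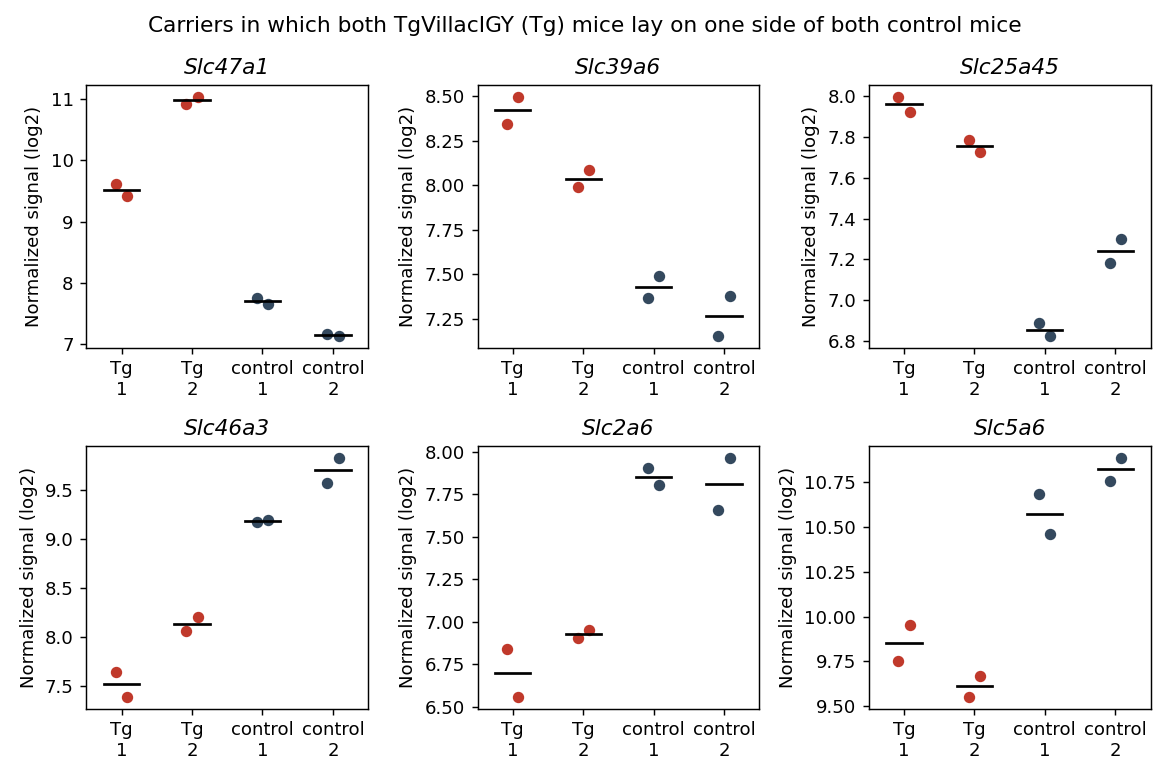
Normalized signal (log2, y axis) of 6 carriers on each array, with the 2 TgVillacIGY (Tg) mice left and the 2 control mice right; points are arrays and bars are mouse means. In the upper row both TgVillacIGY mice lie above both control mice, and in the lower row below, with the widest distance for Slc47a1 (a change of 2.82).

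Since the genotype concerns DNA methylation, which in mammals sits on CG dinucleotides, the bases before the start site are shown for 3 carriers that were lower in both TgVillacIGY mice. They are the 250 bases upstream of the outermost annotated start (RefSeq, build GRCm38.p6), written 5′ to 3′ on the gene's strand with each CG in capitals. All 3 genes lie on the minus strand: Slc46a3 at chr5:147894816-147895065, Slc2a6 at chr2:27027999-27028248 and Slc5a6 at chr5:31048563-31048812.
Slc46a3: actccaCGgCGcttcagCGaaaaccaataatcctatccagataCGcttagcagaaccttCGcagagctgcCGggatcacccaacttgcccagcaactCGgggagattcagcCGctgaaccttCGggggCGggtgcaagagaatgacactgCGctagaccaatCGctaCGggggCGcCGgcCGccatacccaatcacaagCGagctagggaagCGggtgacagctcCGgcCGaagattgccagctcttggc
Slc2a6: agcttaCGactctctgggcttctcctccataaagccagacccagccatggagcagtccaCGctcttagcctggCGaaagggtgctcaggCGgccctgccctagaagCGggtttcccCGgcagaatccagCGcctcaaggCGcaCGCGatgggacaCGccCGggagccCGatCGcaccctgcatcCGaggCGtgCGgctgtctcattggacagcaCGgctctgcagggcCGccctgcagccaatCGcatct
Slc5a6: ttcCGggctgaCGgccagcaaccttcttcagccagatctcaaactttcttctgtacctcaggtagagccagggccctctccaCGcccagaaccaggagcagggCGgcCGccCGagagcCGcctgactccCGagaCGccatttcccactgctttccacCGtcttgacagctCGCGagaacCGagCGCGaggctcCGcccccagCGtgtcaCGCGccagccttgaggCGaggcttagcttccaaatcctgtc
Each of these windows holds 20 CG dinucleotides, with an observed to expected ratio of 0.891 for Slc46a3, 0.761 for Slc2a6 and 0.822 for Slc5a6. The 3 were picked with their values known and do not stand for all carriers that were lower. Of 20 carriers below in both TgVillacIGY mice with a window, 11 (55%) had a ratio over 0.6, against 52.4% of all carriers with a window. Their windows held from 0 to 35 CG dinucleotides. Methylation was not measured in these samples.

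Among 9 sugar and polyol carriers, Slc2a6 had the smallest p. It encodes GLUT6, a facilitative sugar carrier family member found on intracellular membranes. Its raw signals were 159 and 150 in TgVillacIGY mouse 1 and 213 and 226 in mouse 2, against 322 and 288 in control mouse 1 and 302 and 294 in control mouse 2. The levels were 6.81 ± 0.16 in TgVillacIGY mice and 7.83 ± 0.03 in control mice, a change of -1.02 ± 0.18 (SE) with an adjusted p of 0.200, the smallest among the 134 carrier rows. The other rows of the class straddled 0. Slc45a4 was higher by 0.50 ± 0.16 (SE, adjusted p = 0.519), at 7.23 and 7.24 in TgVillacIGY mice and 6.78 and 6.69 in control mice. Slc5a1, the sodium-glucose cotransporter SGLT1, had a change of -0.01, at 9.91 and 10.30 in TgVillacIGY mice and 10.11 and 10.13 in control mice. Slc2a1, the basal glucose carrier GLUT1, was at 11.61 in TgVillacIGY mouse 1, below control mice 1 and 2 (12.45 and 12.38), and at 12.54 in TgVillacIGY mouse 2, above them. Slc50a1, the vertebrate member of the SWEET family, split the other way, at 12.17 in TgVillacIGY mouse 1 and 10.88 in mouse 2, against 11.34 and 11.30 in control mice 1 and 2.

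Metal and calcium carriers made up 22 rows, of which 4 lay above and 6 below. Zinc importers of the Slc39 family move zinc into the cytosol, and Slc30 members move it out of the cytosol into vesicles or out of the cell. The importer Slc39a6 had raw signals of 316 and 376 in TgVillacIGY mouse 1 and 370 and 402 in mouse 2, against 241 and 247 in control mouse 1 and 235 and 218 in control mouse 2. It was higher by 0.88 ± 0.21 (SE, adjusted p = 0.364), and all 4 TgVillacIGY arrays lay above all 4 control arrays. Slc39a11 was higher by 0.53 ± 0.29 (SE), and of 6 Slc39 rows 4 had positive changes. Slc39a4, the apical zinc importer whose loss causes zinc deficiency, was at 11.80 and 12.80 in TgVillacIGY mice 1 and 2, on either side of control mice 1 and 2 (12.72 and 12.38). Of the exporters to the secretory pathway, Slc30a5 and Slc30a7 were higher by 0.45 ± 0.20 and 0.51 ± 0.23 (SE), with both TgVillacIGY mice above both control mice, whereas Slc30a6 differed by -0.02. Slc30a1, the zinc exporter of the plasma membrane, was at 7.38 in TgVillacIGY mouse 1 and 8.99 in mouse 2, around control values of 8.51 and 8.49.

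The iron and manganese exporters had their lowest levels in TgVillacIGY mouse 1, except the dimmer Slc40a1 row. Slc40a1 encodes ferroportin, the exporter that passes iron to the blood, and was seen in 2 rows. The brighter row had raw signals of 1258 and 1516 in TgVillacIGY mouse 1 and 6336 and 7160 in mouse 2, against 7812 and 6470 in control mouse 1 and 13075 and 10866 in control mouse 2. Mouse 1 was well below the other 3 mice, and the control mice themselves differed. The change was -1.42 ± 0.63 (SE, adjusted p = 0.631), and in the dimmer row -0.33 ± 0.21 (SE, adjusted p = 0.697), the same direction but a smaller size. Slc30a10, a manganese exporter, had raw signals of 73.3 and 85.0 in TgVillacIGY mouse 1, 312 and 354 in TgVillacIGY mouse 2, 438 and 309 in control mouse 1 and 424 and 384 in control mouse 2. It was detected on 2 of 4 TgVillacIGY arrays, and its signal in mouse 1 was not above background, where the arrays' estimated background means were 80.0 and 81.0. The size of its change of -1.94 ± 0.94 (SE, adjusted p = 0.644) is therefore uncertain, and with the background estimated from all rows it was -0.24. In mouse 2 the change was -0.51. The iron importer Slc11a2 (0.28), the copper importer Slc31a1 (0.09) and the heme carrier Slc48a1 (0.22) had small changes within the spread of the mice.

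The 3 calcium exchangers below all had negative changes. The potassium-dependent sodium-calcium exchanger Slc24a3 was at 6.41 and 6.33 in TgVillacIGY mice 1 and 2, against 7.13 and 7.88 in control mice 1 and 2, a change of -1.13 ± 0.29 (SE, adjusted p = 0.409), with 3 of 4 TgVillacIGY arrays detected. Slc8b1, the sodium-calcium exchanger of mitochondria, was at 10.16 in both TgVillacIGY mice, against 10.74 and 10.98 in control mice 1 and 2 (change -0.70 ± 0.18, SE, adjusted p = 0.400). Slc8a1, the exchanger of the plasma membrane, was at 7.87 in TgVillacIGY mouse 1 but 10.07 in mouse 2, against 9.95 ± 0.07 in control mice (SD).

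The bile acid carriers Slc51a and Slc51b had the widest gaps between the TgVillacIGY mice of all carrier rows. Slc51a and Slc51b encode the alpha and beta subunits of the basolateral bile acid exporter, which works only as a pair. Slc51a had raw signals of 413 and 426 in TgVillacIGY mouse 1 and 4491 and 4650 in mouse 2, against 2836 and 3141 in control mouse 1 and 4609 and 3961 in control mouse 2. Slc51b had 246 and 277 in TgVillacIGY mouse 1 and 2419 and 2515 in mouse 2, against 1364 and 1433 in control mouse 1 and 1765 and 1316 in control mouse 2. Both subunits were far lower in TgVillacIGY mouse 1 than in any other mouse, and mouse 2 was level with or above the control mice. Against the mean of control mice, Slc51a differed by -2.91 in mouse 1 and 0.26 in mouse 2, and Slc51b by -2.51 and 0.63. The genotype changes of -1.33 ± 1.05 and -0.94 ± 1.03 (SE, adjusted p = 0.748 and 0.813) lay within this spread. The same 250-base windows of the pair, on the minus strand at chr16:32487880-32488129 for Slc51a and chr9:65422774-65423023 for Slc51b, hold 3 CG dinucleotides each, in capitals.
Slc51a: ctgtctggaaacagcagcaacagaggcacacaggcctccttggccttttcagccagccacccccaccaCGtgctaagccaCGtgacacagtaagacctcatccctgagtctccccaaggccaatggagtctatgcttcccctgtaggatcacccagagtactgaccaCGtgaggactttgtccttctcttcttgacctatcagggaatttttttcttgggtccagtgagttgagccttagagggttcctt
Slc51b: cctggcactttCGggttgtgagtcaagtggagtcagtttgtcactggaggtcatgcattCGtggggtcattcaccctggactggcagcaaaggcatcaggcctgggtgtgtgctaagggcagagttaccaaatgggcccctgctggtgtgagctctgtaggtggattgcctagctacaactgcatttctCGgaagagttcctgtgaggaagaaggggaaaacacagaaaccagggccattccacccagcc
The observed to expected ratios of CG are 0.174 for Slc51a and 0.164 for Slc51b. Both windows hold AGGTCA on 1 of the strands, a sequence that many nuclear receptors bind, and 12.5% of the 17492 protein-coding genes with a window hold it.

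Of the 4 fatty acid carriers of the Slc27 family, which also activate fatty acids to acyl-CoA, Slc27a2 was at 8.53 and 7.48 in TgVillacIGY mice 1 and 2, against 7.08 and 6.77 in control mice 1 and 2. Its change was 1.08 ± 0.39 (SE, adjusted p = 0.560), and Slc27a3 was higher by 0.54 ± 0.24 (SE). Slc27a4, the main form of the gut, was at 6.63 in TgVillacIGY mouse 1 and 8.11 in mouse 2, around control mice 1 and 2 (8.05 and 7.78).

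Of 6 rows for carriers of carboxylates and phosphate, 4 lay below in both TgVillacIGY mice and 1 above, beside 20.9% and 21.7% of all rows. For Slc13a2 and Slc17a4 mouse 2 was close to control, at -0.26 and -0.24. Slc13a2, the apical sodium-dicarboxylate carrier for succinate and citrate, had raw signals of 830 and 859 in TgVillacIGY mouse 1 and 5861 and 5385 in mouse 2, against 7156 and 5788 in control mouse 1 and 7026 and 5410 in control mouse 2. Mouse 2 lay just below the control mice, and the change of -1.41 ± 0.76 (SE, adjusted p = 0.667) was -2.56 in mouse 1 and -0.26 in mouse 2. Slc16a9, a monocarboxylate carrier family member, was at 6.90 and 8.11 in TgVillacIGY mice 1 and 2, against 8.88 and 9.15 in control mice 1 and 2, a change of -1.51 ± 0.43 (SE, adjusted p = 0.460). Slc16a6, which exports ketone bodies from the liver in zebrafish, ran the other way, at 6.32 ± 0.40 in TgVillacIGY mice and 5.66 ± 0.01 in control mice (SD, change 0.66 ± 0.24, SE, adjusted p = 0.566), and was detected on 2 of 4 control arrays. The sodium-phosphate cotransporter Slc20a1 was at 5.89 and 7.10 in TgVillacIGY mice 1 and 2, with 2 of 4 arrays detected, against 7.75 and 7.95 in control mice 1 and 2 (-1.35 ± 0.43, SE, adjusted p = 0.512). Slc17a4, an intestinal member of the phosphate family, was at 7.08 and 8.68 in TgVillacIGY mice, against 8.92 and 8.91 in control mice (change -1.04 ± 0.54, SE, adjusted p = 0.655).

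Salt and acid-base carriers were represented by 4 rows, none of which separated the genotypes. Slc26a2, a sulfate exchanger, was at 5.43 and 6.98 in TgVillacIGY mice 1 and 2, against 6.56 and 6.96 in control mice 1 and 2. It was detected on 2 of 4 TgVillacIGY arrays, with raw signals of 99.4 and 99.8 in TgVillacIGY mouse 1. Its change of -0.56 was -0.03 with the background estimated from all rows. Slc12a8, of the cation-chloride cotransporter family, was at 13.96 and 12.81 in TgVillacIGY mice, against 12.91 and 12.51 in control mice (0.67 ± 0.43, SE, adjusted p = 0.699). The chloride-bicarbonate exchanger Slc4a2 had a change of -0.18 ± 0.25 (SE). The scaffold Slc9a3r1 (NHERF1), which tethers apical carriers and bears a carrier's symbol without being one, was at 11.12 in TgVillacIGY mouse 1 and 12.51 in mouse 2, against 12.25 and 12.21 in control mice 1 and 2.

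**Figure D3:**
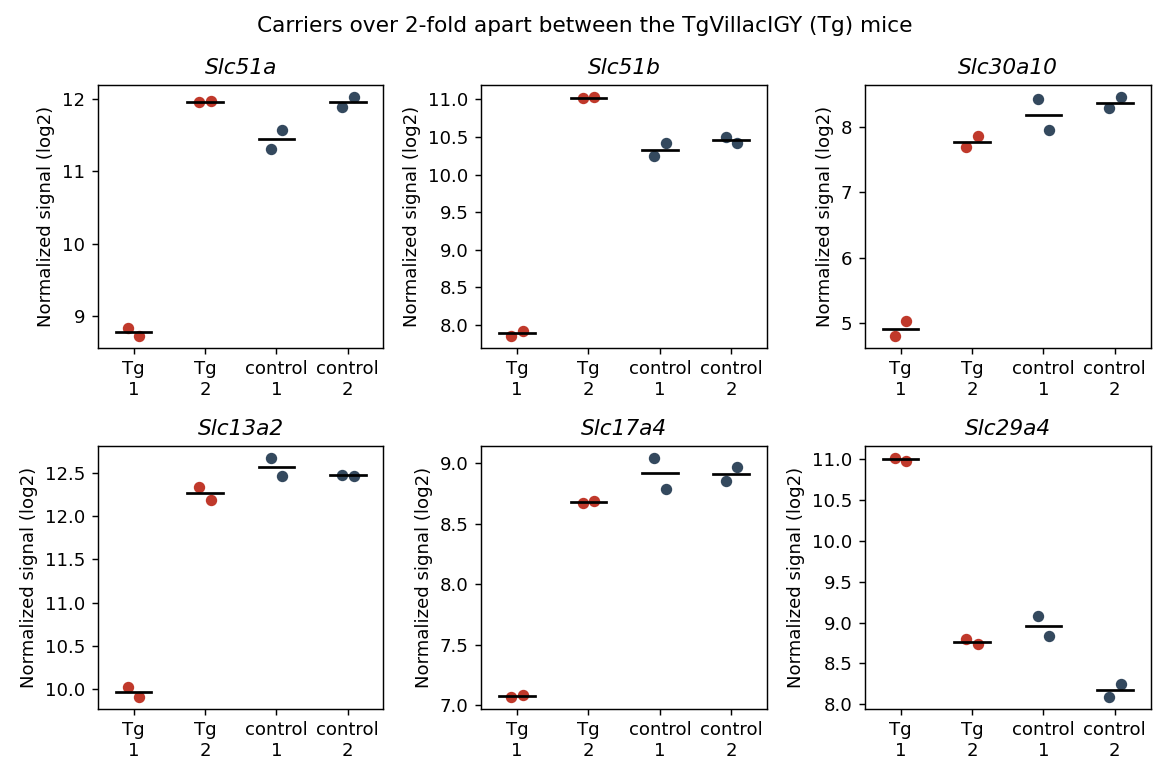
Normalized signal (log2, y axis) of 6 carriers on each array, with the 2 TgVillacIGY (Tg) mice left and the 2 control mice right; points are arrays and bars are mouse means. For 5 carriers TgVillacIGY mouse 1 lies far below the other 3 mice, and for Slc29a4 far above.

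Amino acid and peptide carriers, 18 rows with a median of 0.07 (-0.035 without TgVillacIGY mouse 1 and 0.15 without mouse 2), lay above in 4 rows and below in 2. Slc1a4, an exchanger of alanine, serine and cysteine, had raw signals of 1685 and 2137 in TgVillacIGY mouse 1 and 1406 and 1353 in mouse 2. In control mice 1 and 2 they were 1239 and 916, and 923 and 771. Its change was 0.95 ± 0.40 (SE, adjusted p = 0.622). Slc7a6, the light chain of an exchanger of cationic against neutral amino acids, was at 7.78 and 6.96 in TgVillacIGY mice 1 and 2, above both control mice, with raw signals of 251.4, 241.9, 206.7 and 240.6 on the TgVillacIGY arrays and 188, 153.1, 158 and 134.6 on the control arrays (change 0.97 ± 0.34, SE, adjusted p = 0.544). Slc38a10 was higher by 0.66 ± 0.24 (SE, adjusted p = 0.566). Both Slc7a6 and Slc38a10 were detected on 4 of 4 TgVillacIGY and 1 of 4 control arrays and passed the rule through the TgVillacIGY arrays. The cystine-glutamate exchanger Slc7a11 was at 8.06 and 7.23 in TgVillacIGY mice and 7.25 and 6.77 in control mice, so the groups overlapped. The glutamate carrier Slc1a1 was at 8.82 and 9.83 in TgVillacIGY mice and 9.40 and 9.78 in control mice, also overlapping.

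Of 5 rows in the nucleoside class, 0 lay above and 0 below in both mice. The class median of 0.35 is the change of Slc17a9, placed here apart from its family. Slc28a3 and Slc29a3 had changes of -0.09 and -0.19. Slc29a4, a carrier of monoamines in the equilibrative nucleoside family, had raw signals of 1551 and 1655 in TgVillacIGY mouse 1 and 584 and 582 in mouse 2, against 646 and 516 in control mouse 1 and 378 and 340 in control mouse 2. Only TgVillacIGY mouse 1 stood above the rest, by 2.43 over the mean of control mice, against 0.20 for mouse 2 (change 1.31 ± 0.78, SE, adjusted p = 0.685). The equilibrative nucleoside carrier Slc29a1 was at 9.28 and 8.28 in TgVillacIGY mice, against 8.40 and 8.34 in control mice.

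The class of ER and Golgi carriers, for nucleotide sugars, sulfate donors and sugar phosphates, held 14 rows. Positive changes were seen in 11 of them, beside 3387 of all 6982 rows. The range ran from -0.11 for Slc37a4 to 0.53 for Slc35e1. Of the 14 rows 5 lay above and 0 below, beside 21.7% and 20.9% of all rows. Their median of 0.17 was -0.039 without TgVillacIGY mouse 1. Slc35e1, whose substrate is not established, was at 10.97 ± 0.05 in TgVillacIGY mice and 10.44 ± 0.12 in control mice (SD, change 0.53 ± 0.17, SE, adjusted p = 0.518). The GDP-fucose carrier Slc35c1 was higher by 0.43 ± 0.19 (SE, adjusted p = 0.626), with raw signals of 8925 to 12718 over all 8 arrays, yet its row was called detected on only 2 of 4 TgVillacIGY arrays. Its detection values, like those of 20 other carrier rows, are not whole steps. The CMP-sialic acid carrier Slc35a1 (0.18) and the sulfate donor carrier Slc35b3 (-0.05) had small changes. In 2 others the mice cancelled: Slc35b2, the other sulfate donor carrier, was at 0.43 in TgVillacIGY mouse 1 and -0.39 in mouse 2 relative to control mice, and the UDP-galactose carrier Slc35a2 at 0.24 and -0.42.

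Mitochondrial carriers were the largest class, with 26 rows, a median of -0.04, 3 rows above and 4 below. Among the carriers of core metabolism, the adenine nucleotide carrier Slc25a5 had a change of -0.06 ± 0.18, the citrate carrier Slc25a1 one of -0.01 ± 0.18 and the phosphate carrier Slc25a3 one of -0.39 ± 0.23 (SE). The iron carriers Slc25a28 and Slc25a37, which serve heme and iron-sulfur cluster synthesis, had changes of 0.11 and 0.12. Slc25a45 was at 7.96 and 7.76 in TgVillacIGY mice 1 and 2, against 6.85 and 7.24 in control mice 1 and 2 (0.81 ± 0.21, SE, adjusted p = 0.420). Slc25a47 was at 9.44 and 8.14 in TgVillacIGY mice, against 7.71 and 7.99 in control mice (0.94 ± 0.46, SE, adjusted p = 0.644). Slc66a2, of no fixed class, was at 12.41 and 11.75 in TgVillacIGY mice, against 12.08 and 11.91 in control mice, and Slc4a1ap, a protein that binds a carrier, at 9.11 and 8.95 in TgVillacIGY mice, against 9.03 and 8.79 in control mice. Slc66a1, which exports cationic amino acids from lysosomes, fell outside the classes and had a change of -0.34, at 7.70 and 7.79 in TgVillacIGY mice, against 8.02 and 8.16 in control mice.

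The distance between the 2 TgVillacIGY mice was a feature of many carriers. They differed by over 2-fold in 29 rows: mouse 1 was lower in 19 (14.2%, against 5.73% of all rows) and higher in 10 (7.46%, against 3.14%). The control mice differed by over 2-fold in 2 rows (1.49%, against 1.96%), Slc46a1 and Slc25a29. The median distance between mice over the carriers was 0.45 for TgVillacIGY mice and 0.15 for control mice, against 0.30 and 0.15 over all rows. Arrays of 1 mouse were 0.09 to 0.17 apart (median over carriers). Among rows detected on all 8 arrays, mouse 1 was lower in 13 (11.8%, against 4.9%) and higher in 10 (9.09%, against 2.86%). The 19 were Slc51a, Slc51b, Slc30a10, Slc13a2, Slc8a1, Slc40a1, Slc17a2, Slc17a4, Slc30a1, Slc26a2, Slc45a3, Slc7a9, Slc27a4, Slc23a2, Slc47a1, Slc9a3r1, Slc20a1, Slc16a9 and Slc1a1, a list made after the values were seen. Of the listed rows, Slc30a10, Slc17a2, Slc26a2, Slc7a9 and Slc20a1 were detected on only 2 of 4 TgVillacIGY arrays, so the size of their gaps is uncertain. The summed signal of the 7 tested mature colonocyte markers was lowest in TgVillacIGY mouse 1. Relative to the mean of control mice, their median was -1.62 in TgVillacIGY mouse 1 and 0.06 in TgVillacIGY mouse 2. Of the 7, 2 lay below both control mice in both TgVillacIGY mice. Other markers also differed. The median of 4 tested goblet cell markers was 0.47 in TgVillacIGY mouse 1 and -0.08 in mouse 2. The summed signal of the 7 epithelial markers was 73010 and 108200 in TgVillacIGY mice 1 and 2, against 97330 and 90750 in control mice 1 and 2. The 1 tested erythroid marker had a signal of 143 in TgVillacIGY mouse 1 and 2101 in mouse 2, against 2786 and 8128 in control mice. Another erythroid marker, Alas2, was detected on no array. The 1 tested endothelial marker, Vwf, had 2143 and 1160 in TgVillacIGY mice 1 and 2, against 192 and 185 in control mice. The other 3 endothelial markers, Pecam1, Kdr and Cdh5, were detected on no array. All 3 tested markers of proliferating crypt cells were higher in both TgVillacIGY mice than in both control mice. The part of cell makeup in these carrier values was not tested.

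**Figure D4:**
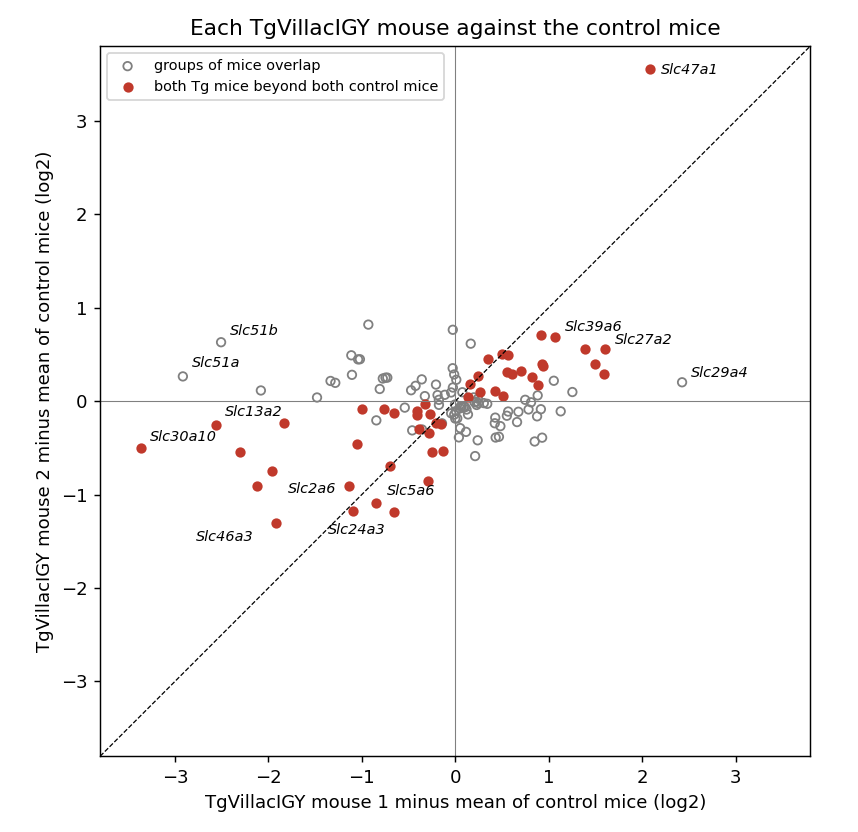
Change of each solute carrier row in TgVillacIGY mouse 1 (x axis) and mouse 2 (y axis) against the mean of the control mice (log2), which both axes share; filled points have both TgVillacIGY mice beyond both control mice and the dashed line marks equal values. Slc51a, Slc51b and Slc30a10 lie far left, at 0.26, 0.63 and -0.51 on the y axis, with Slc30a10 not above background in mouse 1, and Slc47a1 is high on both axes.

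Other membrane transport genes, that is ATP-binding cassette carriers, ion and lipid pumps, aquaporins and organic anion carriers of the Slco family, were counted in the same way. Of 46 tested rows, 10 lay above and 10 below (21.7% each), 0 were called by limma and 2 were higher and 2 lower at an unadjusted p under 0.05, with a median change of -0.05. TgVillacIGY mouse 1 was over 2-fold lower than mouse 2 in 8 of them (17.4%) and higher in 1 (2.17%).

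Upstream windows were available for 105 of the 133 carrier genes. Their median was 13 CG dinucleotides, against 10 over 17492 protein-coding genes, and 55 carriers (52.4%, against 45.2%) had an observed to expected ratio over 0.6. The median ratio was 0.69 for 18 carriers above and 0.74 for 20 carriers below in both TgVillacIGY mice. It was 0.53 for 15 carriers that were over 2-fold lower in TgVillacIGY mouse 1 than in mouse 2. For 9 carriers over 2-fold higher in mouse 1 it was 0.61, and for 81 carriers within 2-fold 0.65. The median over all 17492 protein-coding genes was 0.54, close to that of the 15. Of 4 motifs searched on both strands, CACGTG, which contains a CG, was in 10.5% of carrier windows (6.65% of all), AGGTCA in 13.3% (12.5%), TTTAT in 22.9% (34.2%) and CCAAT in 37.1% (36.5%).

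At the edge of the detection rule, Slc30a4, a zinc carrier of vesicles, was the only member detected on exactly 4 arrays, at 5.89 and 6.48 in TgVillacIGY mice and 6.47 and 6.03 in control mice. Just outside it, 4 rows were detected on 3 arrays: Slc16a13, Slc30a9, Slc6a12 and Slc6a19, the apical neutral amino acid carrier of the small intestine. Slc16a13 was detected on 3 TgVillacIGY arrays and 0 control arrays, at 6.56 and 6.16 in TgVillacIGY mice and 6.20 and 5.68 in control mice.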

How the data were processed

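Signals of 8 Illumina MouseRef-8 v2.0 arrays were analysed. The authors deposited linear intensity values without normalization, per the file headers, and a detection value per row as a fraction that rises with the signal and was read as 1 minus the detection p. Per the submitters' processing notes BeadStudio and Partek were used. The deposited log2 matrix, which its values show to be quantile normalized, served as an alternative. Background was corrected by normexp (limma 3.58.1, R 4.3.3), inferred from the 13920 rows whose detection values are whole multiples of 1/798, with an offset of 16, quantile normalization and log2. A row was tested with a detection p under 0.01 on at least 4 of 8 arrays. Arrays of a mouse were averaged, and lmFit and eBayes compared 2 mice with 2, two-sided, with Benjamini-Hochberg adjustment over 6982 rows. The fit was tested on simulated data. The number of mice, 2 per genotype, and of arrays limits the precision. Symbols came from the platform annotation; a gene with several rows is given by the row with the highest mean. Genes were named by rule: the 12 largest separated changes each way, the 2 smallest p per class, the 4 largest gaps between TgVillacIGY mice and rows at the detection limit; the other carriers were named after their values were seen. Members, classes and lists were chosen with earlier results of these data known.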

Additional observations from a re-analysis of the deposited data

Results flagged for a closer look

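Over the 4 arrays of a genotype, 76 groups of values of named carriers were examined for an array far from the others, and 2 had one. Chance alone sets apart about 1 group in 20 when the 4 values are independent; here they are 2 arrays from each of 2 mice, so the true rate is not known. Slc13a2 was at 12.68 on array 1 of control mouse 1, with the other control arrays at 12.47 to 12.48. Slc9a3r1 was at 12.29 on the same array, with the others at 12.20 to 12.22. Both gaps are small beside the distance to TgVillacIGY mouse 1.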

How the results depend on the processing

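The 38 named carriers were recomputed under 18 other settings, 1 of them, rows with whole-step detection values only, chosen after seeing the data. Of 670 values, 622 kept direction and side of the threshold, 36 passed the threshold and 12 changed sign. Without one mouse in turn, 0 to 39 carrier rows were called, 2 to 37 were higher and 2 to 33 lower at an unadjusted p under 0.05; the 39, 37 and 33 came without TgVillacIGY mouse 2, where the spread comes from control mice alone, and 14 were lower and 1 was called without TgVillacIGY mouse 1. These fits leave 1 mouse in a genotype, so their counts cannot show whether carriers differ from other rows. Without TgVillacIGY mouse 1, and without TgVillacIGY mouse 2, more rows were called over the whole array as well. More were also higher, and more lower, at the unadjusted limit than in the main fit. Over the fits without one mouse, changes that crossed 0 ran from -2.91 to 0.26 for Slc51a, -2.51 to 0.63 for Slc51b, -1.33 to 0.22 for Slc26a2, -0.087 to 0.92 for Slc29a1, -1.11 to 0.28 for Slc9a3r1, -0.24 to 0.42 for Slc66a2, -0.36 to 0.23 for Slc30a4 and -0.00135 to 0.24 for Slc4a1ap. The value past 0 came without TgVillacIGY mouse 1, except for Slc4a1ap, where it came without control mouse 2, and Slc30a4 was also at 0.16 without control mouse 1. With array 1 alone Slc30a4 was at 0.048 and Slc4a1ap at -0.073, and with median scaling Slc66a2 was at -0.070. The fit of 8 arrays with the mouse as a random effect takes degrees of freedom from arrays. It called 7 of 134 carrier rows, against 185 of all 6982 rows. Unadjusted, 14 carrier rows were higher and 13 lower, against 488 and 465 of all rows. The 7 were Slc47a1, Slc46a3, Slc2a6, Slc5a6, Slc25a45, Slc39a6 and Slc16a9. With the array number as a replicate block as well, the fit called 3 carrier rows, against 137 of all rows. Unadjusted, 12 carrier rows were then lower, against 409 of all rows. The count of carrier rows higher unadjusted was 5 with background from all rows, with series matrix values and with array 1 alone. Over all 6982 rows it was 307, 315 and 248. With rows detected on all 8 arrays it was 4 of 110 carrier rows, against 206 of 5976 rows. Without the detection filter 14 of 319 carrier rows were higher and 13 lower, against 792 and 734 of 18097 rows. The cause of these shifts was not tested. The change of Slc47a1 ran from 1.51 with background from all rows to 3.55 without TgVillacIGY mouse 1. With background from all rows the estimated background SD was 389 to 682 per array, against 13.7 to 24.2 from whole-step rows, and changes of dim rows shrank, to -0.14 for Slc2a6 and -0.24 for Slc30a10.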
